A study of Rattus norvegicus with 8 samples.

Results

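The genes that carry a signal from hormone receptors to cyclic AMP (cAMP) and inositol phosphates were read in the pituitary of rat dams. They were taken from the array by name: the alpha, beta and gamma subunits of heterotrimeric G proteins, the regulator of G protein signalling (RGS) proteins, adenylyl cyclases, phosphodiesterases, the subunits of cAMP-dependent protein kinase (PKA), phospholipase C beta and the inositol trisphosphate (IP3) receptors. They came to 103 genes on 128 probes, out of 30367 probes on the array, and on 218 of its 42877 spots that were not controls. Of these genes 79 passed the filter on dim signal, out of 17361 genes tested in all. The other 24 are listed at the end of their families.

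The samples were whole pituitaries of Wistar dams that were lactating, collected on postpartum day 7, with 4 samples from dams exposed to TCDD and 4 from control dams, and the labels record no other difference. TCDD is a dioxin and a strong agonist of the aryl hydrocarbon receptor, a transcription factor that ligands switch on. Neither dose nor day of exposure is in the labels used here, nor is the litter or whether a sample is 1 dam or a pool, so p-values cover only the spread among the 8 samples. RNA of each was labelled with Cy3 and read on an Agilent rat array of its own, in a single colour.

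In this pathway a hormone receptor makes a G protein alpha subunit exchange GDP for GTP and part from its beta and gamma subunits. Alpha subunits of the Gs class stimulate adenylyl cyclase, those of the Gi/o class inhibit it, and those of the Gq/11 class activate phospholipase C beta, which makes IP3 and diacylglycerol. RGS proteins speed up the hydrolysis of GTP, phosphodiesterases destroy cAMP and cGMP, PKA carries out most effects of cAMP, and IP3 receptors release calcium from the endoplasmic reticulum. In the pituitary, growth hormone releasing hormone and corticotropin releasing hormone act through Gs, dopamine and somatostatin through Gi/o, and gonadotropin releasing hormone and thyrotropin releasing hormone through Gq/11.

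All values are log2 of the processed signal minus each array's 75th percentile, so 0 is the signal of a spot at that percentile. Each change is a log2 difference, TCDD minus control. The 75th percentile lay between 765 and 932, the share of spots well above background between 71.1% and 73.9%, and 0 spots were saturated. Precision is limited by the number of arrays. All TCDD arrays lay on slide 2 and all control arrays on slide 1, and they were scanned as 2 separate batches in the same way, so slide, scan and exposure cannot be told apart. The 8 genes fixed as markers of the anterior pituitary, prolactin (Prl), growth hormone (Gh1) and Pomc among them, were well above background on all 8 arrays. Fewer cells of a type and less RNA per cell cannot be told apart in whole tissue.

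No gene of the pathway set passed the test. By limma with Benjamini-Hochberg adjustment over all genes, 0 of the 79 tested members passed an adjusted p of 0.05, against 0.0806% of all genes tested (10 higher and 4 lower), and the lowest adjusted p of a member was 0.196. At an unadjusted p under 0.05 there were 9 members, 11.4% of those tested, against a background of 10.7% of all genes. Of these, 8 were higher after TCDD and 1 was lower, and the background was 7.76% higher and 2.95% lower. A total of 3 members, all higher, had TCDD and control values that did not overlap, against 5.19% of all genes for higher and 1.91% for lower. The members' share at an unadjusted p under 0.05 in either direction was thus near the background. The counts of 1 lower member and 3 members without overlap are too small for a close comparison. The log2 change was above 0 in 40 members and below 0 in 39, against 56.4% of all genes above 0, with a median of 0.0008, beside a median of 0.02 over all genes.

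**Figure D1:**
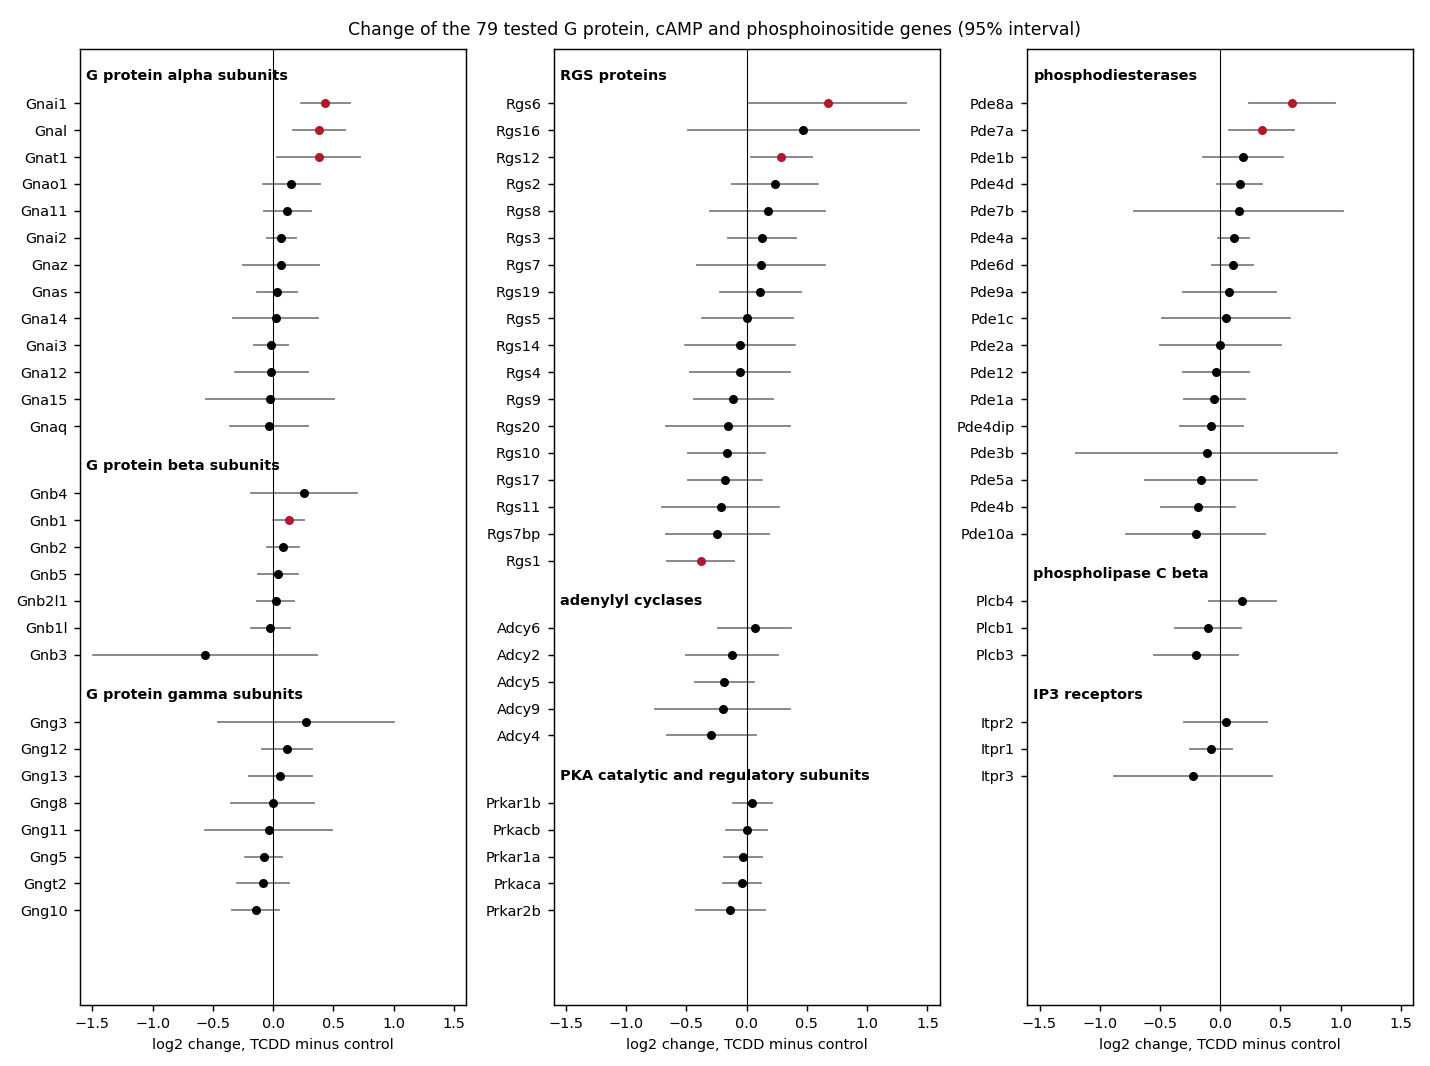
Change of each of the 79 tested genes as log2, TCDD minus control (horizontal axis), with its 95% interval from limma, grouped by family. Red points are the 9 genes at an unadjusted p under 0.05 and black points the others. Most points lie within 0.5 of 0, and Rgs6, Pde8a and Gnb3 lie farther out.

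The width of the intervals bounds the size of each change. The 95% interval of the change lay inside 1.5-fold in both directions for 55 of the 79 members (69.6%), against 79.1% of all genes. Inside 1.25-fold it lay for 22 members (27.8%), against 45.7% of all genes, and inside 2-fold for 73 members (92.4%). The median SD between arrays of a group was 0.21 for the members and 0.15 over all genes. The members thus varied more between arrays than the array's genes at large, and fewer of them had intervals confined to a small change. The sets were not matched for signal strength, and many members were dim.

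Among G protein alpha subunits 9 of the 13 tested genes had a log2 change above 0 and 4 below it, with a median of 0.06, and 0 passed the test in limma (3 at an unadjusted p under 0.05). Gnai1, an alpha subunit that inhibits adenylyl cyclase, had the smallest p of all members. Its log2 signals were -5.03, -4.94, -5.17 and -4.84 on the TCDD arrays, against -5.28, -5.41, -5.53 and -5.49 on the control arrays. Every TCDD array lay above every control array. The log2 change was 0.43 (SE 0.09), a 1.35-fold higher signal, with an unadjusted p of 0.00124 and an adjusted p of 0.196 in limma. The exact two-sided permutation p over 70 assignments was 0.0286, which is the smallest that 4 against 4 arrays can give. The probe is dim, and after normexp background correction with quantile normalization the log2 change was 0.16. That setting adds an offset of 50 to each signal, which shrinks log2 changes of dim probes by construction, here and below. It also changes the background correction and the scaling of arrays, so the offset is not its only difference.

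Gnal encodes the olfactory alpha subunit, a stimulatory relative of Gs that is best known from olfactory neurons and the striatum. It gave log2 signals of 0.48, 0.46, 0.46 and 0.78 on the TCDD arrays, against 0.04, 0.20, 0.15 and 0.26 on the control arrays. The groups did not overlap, and TCDD replicate 4 stood above the other 3 TCDD arrays. This log2 change of 0.38 (SE 0.09), or 1.30-fold, had an unadjusted p of 0.00321 and an adjusted p of 0.261 in limma, and an exact permutation p of 0.0286. Without TCDD replicate 4 the log2 change was 0.30. Of 7 listed markers of brain neurons, Drd1, Slc17a7, Neurod6 and Gabra6 were not well above background on enough arrays to be tested. The mean deviation of the other 3 was -0.39 to 0.31 on TCDD arrays and -0.26 to 0.13 on control arrays.

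Gnat1, the transducin alpha subunit of rod photoreceptors, was the other alpha subunit at an unadjusted p under 0.05. It stood at -4.43, -3.94, -4.15 and -4.66 on the TCDD arrays and at -4.69, -4.68, -4.55 and -4.78 on the control arrays. One TCDD array fell among the control arrays. Its log2 change was 0.38 (SE 0.15, adjusted p = 0.436 in limma), and it was 0.14 with normexp and quantile normalization. Of 10 markers of photoreceptors and pinealocytes 4 were tested, with a mean deviation of -0.23 to 0.34 on TCDD arrays and -0.77 to 0.33 on control arrays. The defining markers Opn1sw, Crx, Pdc, Aanat, Rcvrn and Pde6a, the last also a member here, were not well above background on enough arrays to be tested, and their part in the Gnat1 value was not tested.

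Leaving aside Gnai1, given above, the alpha subunits that carry the signals of the pituitary's releasing hormones and of dopamine gave small log2 differences. Gnas, the stimulatory alpha subunit, had log2 signals of 6.95, 7.10, 7.05 and 6.89 on TCDD arrays and 6.85, 6.97, 6.98 and 7.06 on control arrays. Its log2 change was 0.03 with a 95% interval of -0.14 to 0.20. Gnai2, an inhibitory alpha subunit, had the smallest spread of all members. It lay at 5.63, 5.67, 5.70 and 5.62 on TCDD arrays and at 5.59, 5.63, 5.60 and 5.53 on control arrays, with an interval of -0.05 to 0.19 for the change. The groups overlapped in both genes. Gnao1, the inhibitory alpha subunit abundant in neuroendocrine cells, had a log2 change of 0.15 (SE 0.10, adjusted p = 0.675 in limma). A further probe of Gnao1 gave 0.01 (SE 0.12). For Gnaq the change was -0.04 (SE 0.14) and for Gna11 0.12 (SE 0.08), both of the class that activates phospholipase C, and neither passed. The remaining tested alpha subunits Gna12, Gna14, Gna15, Gnai3 and Gnaz had log2 changes between -0.03 and 0.06. Gna13 and Gnat3, the alpha subunit of taste cells, were well above background on 0 arrays, and Gnat2, that of cones, on 1 TCDD array and 0 control arrays.

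By class, both Gs genes had changes above 0, with a median of 0.21, and so did 5 of 6 tested Gi/o genes, with a median of 0.11. In the Gq/11 class it was 2 of 4. The count of alpha subunits above 0 was 7 of 13 with arrays centred on their median and 8 of 13 after quantile normalization, so the balance of directions moved with the scaling.

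The promoters of the 3 members whose groups did not overlap are shown because they can be read for the letters of the dioxin response element core, GCGTG, which the aryl hydrocarbon receptor is known to bind, and of the cAMP response element half-site, TGACG. Each sequence is the 250 bases before the gene's start in RefSeq's GRCr8 build, on the plus strand, 5′ to 3′, with matches on either strand in capitals (CACGC is GCGTG read on the other strand). The Gnai1 window is chr4:17705811-17706060, that of Gnal chr18:62892007-62892256 and that of Gnb1 chr5:171378113-171378362.
Gnai1: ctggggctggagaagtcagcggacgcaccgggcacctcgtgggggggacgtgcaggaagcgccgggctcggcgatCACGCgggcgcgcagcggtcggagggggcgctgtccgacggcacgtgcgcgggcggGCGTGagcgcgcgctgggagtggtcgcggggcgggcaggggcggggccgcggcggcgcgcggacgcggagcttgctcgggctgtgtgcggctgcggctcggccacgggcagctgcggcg
Gnal: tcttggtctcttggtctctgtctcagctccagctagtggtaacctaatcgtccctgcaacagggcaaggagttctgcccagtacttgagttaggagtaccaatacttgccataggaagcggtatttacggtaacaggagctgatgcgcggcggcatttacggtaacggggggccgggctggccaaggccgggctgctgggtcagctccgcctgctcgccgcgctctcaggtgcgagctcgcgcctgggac
Gnb1: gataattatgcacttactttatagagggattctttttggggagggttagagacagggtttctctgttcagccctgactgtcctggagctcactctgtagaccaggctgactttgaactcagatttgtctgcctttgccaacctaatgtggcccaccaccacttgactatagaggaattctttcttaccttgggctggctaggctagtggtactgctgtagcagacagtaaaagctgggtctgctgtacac
The Gnai1 window holds GCGTG once on each strand, and the Gnal and Gnb1 windows hold neither motif. RefSeq promoters matched 78 of the 103 members, and 35.9% of these (28) hold GCGTG, against 27.2% of all 27457 promoters of the same length. For TGACG the share was 19.2% (15) against 19.0%. The members' windows were richer in G and C, with a median of 62% against 52%. A match is a description of letters only.

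Among the 7 genes named as beta subunits 5 had a change above 0, with a median of 0.04, and 1, Gnb1, was at an unadjusted p under 0.05. Gnb1 encodes the beta subunit found in many G protein trimers. Its log2 signals were 0.08, 0.12, 0.04 and 0.01 on TCDD arrays, against -0.04, -0.13, -0.06 and -0.03 on control arrays. The groups did not overlap but lay close together. A log2 change of 0.13 (SE 0.06), or 1.09-fold, had an adjusted p of 0.459 in limma and an exact permutation p of 0.0286. An unadjusted p under 0.05 was found for Gnb1 in 10 of 21 processing settings.

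Gnb3, a beta subunit known from cone photoreceptors and taste cells, had the largest difference of the family and did not pass. It lay at -2.68, -1.83, -2.41 and -0.83 on TCDD arrays and at -1.44, -1.69, -0.73 and -1.64 on control arrays. TCDD replicate 4 and control replicate 3 both lay well above the rest, and the groups overlapped. The log2 change of -0.56 (SE 0.40) had an adjusted p of 0.684 in limma. Gnb2 had a change of 0.08 and Gnb5, the partner of the R7 group of RGS proteins, of 0.04, both with an SE under 0.1. Gnb4 was dim, well above background on 4 TCDD and 3 control arrays, and its change of 0.26 did not pass. Gnb2l1, now named Rack1, a ribosome-bound scaffold, and Gnb1l are relatives that form no G protein trimer, with changes of 0.02 and -0.02.

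Of the 8 tested gamma subunits, which anchor the beta subunits to the membrane, 3 had a change above 0 and 5 below it, with a median of -0.02, and 0 were at an unadjusted p under 0.05. Gng10 came nearest, with log2 signals of 3.47, 3.55, 3.46 and 3.39 on TCDD arrays and 3.53, 3.71, 3.77 and 3.45 on control arrays. The groups overlapped, and the change was -0.15 (SE 0.08, adjusted p = 0.594 in limma). Gng12 had a change of 0.11 (SE 0.09). Gng5 and Gng13, the gamma subunit of taste cells, each had a pair of probes with opposite signs, -0.08 and 0.02 for Gng5 and 0.06 and -0.12 for Gng13. Gng3, a neuronal gamma subunit, varied widely, from -1.16 to 0.11 on TCDD arrays and from -1.15 to -0.05 on control arrays. The remaining tested genes Gng8, Gng11 and Gngt2 had changes of -0.01, -0.04 and -0.08. Gng7 was well above background on 0 arrays, and Gngt1, the rod subunit, on 0 TCDD arrays and 1 control array.

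**Figure D2:**
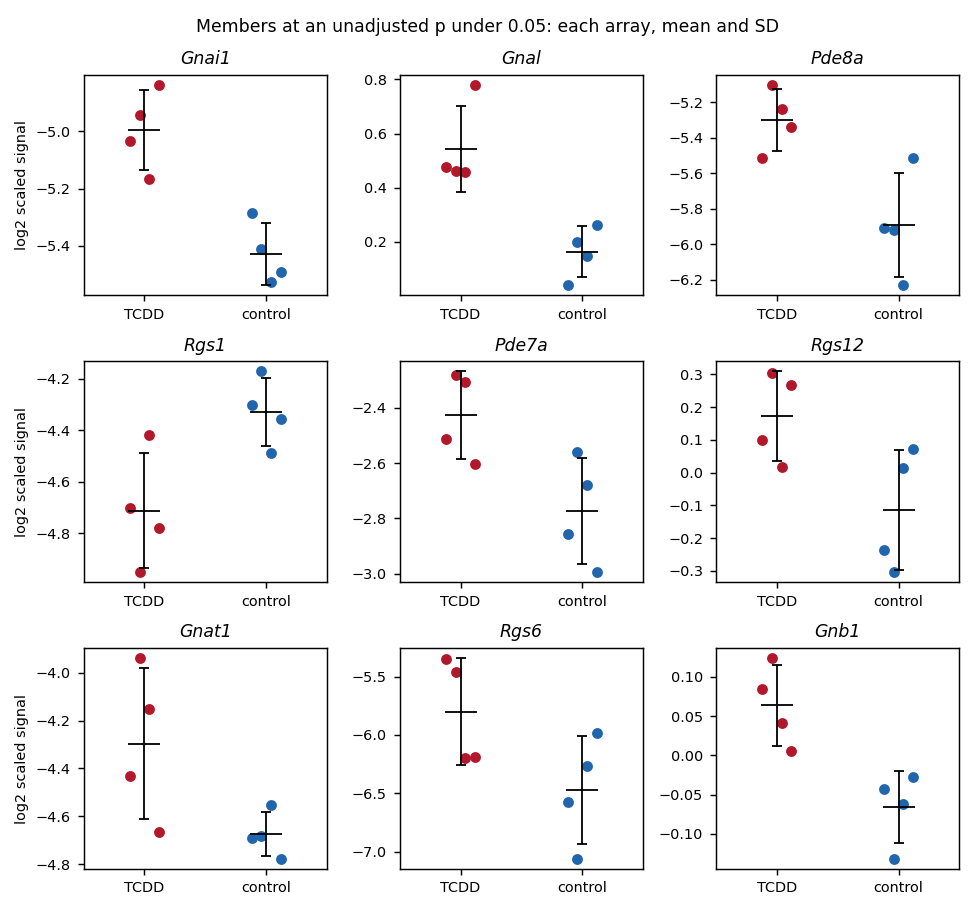
Log2 scaled signal (vertical axis) of the 9 genes at an unadjusted p under 0.05 on each of the 4 TCDD arrays (red, left) and 4 control arrays (blue, right). Black lines are the group mean and SD, and the vertical scale differs between panels. TCDD and control arrays lie apart in the panels of Gnai1, Gnal and Gnb1 and overlap in the other 6.

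RGS proteins were split evenly, 9 of the 18 tested genes above 0 and 9 below, with a median of -0.02. They held 3 of the members at an unadjusted p under 0.05. Rgs1, which acts on Gi and Gq alpha subunits and is best known from lymphocytes, was the single member lower after TCDD at that level. It lay at -4.70, -4.95, -4.42 and -4.78 on TCDD arrays, against -4.30, -4.17, -4.49 and -4.35 on control arrays. TCDD replicate 3 lay above control replicate 3, and the other 3 TCDD arrays lay below every control array. Its log2 change of -0.38 (SE 0.12) had an unadjusted p of 0.0128, an adjusted p of 0.349 in limma and an exact permutation p of 0.0571. With normexp and quantile normalization it was -0.16. Leukocyte markers (10 of 13 tested) had a mean deviation of -0.13 to 0.26 on TCDD arrays and -0.13 to 0.04 on control arrays. Of these, 5 were above 0 and 5 below, and only Csf1r of macrophages (-0.30) and Mpo of granulocytes (0.73) were at an unadjusted p under 0.05. The myeloid markers Cd68, Aif1, Itgam and Lyz2 had changes of -0.16, -0.12, 0.02 and 0.19, and S100a8 and S100a9 of 0.22 and 0.14. Ptprc, a marker of leukocytes in general, and Cd3g of T cells had changes of -0.03 and -0.06. The T cell marker Cd3e and the B cell markers Cd79b and Ms4a1 were too dim to be tested. The part of these cells in the Rgs1 value was not tested.

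Rgs12, a large multidomain RGS protein, gave 0.10, 0.30, 0.02 and 0.27 on TCDD arrays, against -0.24, -0.30, 0.01 and 0.07 on control arrays. TCDD replicate 3 lay below control replicate 4, and the other 3 TCDD arrays lay above every control array. Its log2 change was 0.29 (SE 0.11, adjusted p = 0.421 in limma). Rgs6, an R7 group member that pairs with Gnb5, gave -5.35, -5.46, -6.19 and -6.19 on TCDD arrays, against -6.57, -7.06, -6.27 and -5.98 on control arrays. It was well above background on 3 TCDD arrays and 1 control array, so the log2 change of 0.67 (SE 0.28, adjusted p = 0.454 in limma) rests on dim values. With normexp and quantile normalization the Rgs6 change was 0.15.

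Rgs2, which is selective for Gq, had log2 signals of 0.75, 1.19, 1.03 and 0.86 on TCDD arrays and 1.13, 0.63, 0.46 and 0.66 on control arrays. Of the control arrays replicate 1 alone lay within the TCDD range, and the change of 0.24 (SE 0.16) did not pass (adjusted p = 0.659 in limma). Rgs16, chosen here after its values were seen, showed how 1 array can set a difference. It lay at -4.59, -4.89, -4.54 and -2.87 on TCDD arrays and at -4.82, -4.77, -4.94 and -4.25 on control arrays. Its difference of 0.47 (SE 0.42, adjusted p = 0.753 in limma) was 0.02 without TCDD replicate 4. The other 13 tested genes of the family, among them Rgs4, Rgs9, Rgs10 and the anchor Rgs7bp, had changes between -0.24 and 0.17. Rgs13, Rgs18 and Rgs9bp were well above background on 0 arrays.

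Members that lie close together in the genome did not share a direction as a rule. On rn4, the build of the array's probe coordinates, 7 pairs of tested members had probes within 250 kb of each other, and 3 of the 7 pairs had the same sign. Leaving out the anchor Rgs7bp, 7 of the 17 tested RGS genes lay on chromosome 13. There Rgs1 (chr13:58121355-58121414) and Rgs2 (chr13:57891896-57891955) lay 229.4 kb apart, with log2 changes of -0.38 and 0.24. Rgs16 and Rgs8 lay 45.0 kb apart, with changes of 0.47 and 0.17. On chromosome 8 the probes of Gnat1 and Gnai2 lay 63.4 kb apart, with changes of 0.38 and 0.07. The probe chromosome differed from that of the RefSeq gene for 3 of 100 members, Adcy2, Pde4d and Prkar1a.

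Of the 10 adenylyl cyclases, the enzymes that make cAMP, 5 were tested. A total of 4 of these had a change below 0, with a median of -0.19, and 0 were at an unadjusted p under 0.05. The count below 0 was also 4 of 5 after quantile normalization and median centring, and 5 of 5 when quantile normalization followed normexp. Adcy5, which calcium and Gi alpha subunits inhibit, had log2 signals of -0.36, -0.62, -0.52 and -0.40 on TCDD arrays and -0.09, -0.24, -0.29 and -0.54 on control arrays. Control replicate 4 lay within the TCDD range and the other control arrays above it. The log2 change was -0.19 (SE 0.11, adjusted p = 0.591 in limma). Adcy6, its nearest relative, had a change of 0.06 (SE 0.13), and Adcy2 and Adcy9 had changes of -0.12 and -0.20. Adcy4, which beta and gamma subunits stimulate, was well above background on 1 TCDD array and 3 control arrays, and its change of -0.29 (SE 0.16) did not pass. Adcy1, Adcy3 and Adcy8 were well above background on 0 arrays, Adcy7 on 1 TCDD array and 0 control arrays, and Adcy10, the bicarbonate-activated soluble form, on 2 TCDD arrays and 1 control array.

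Of the 26 genes named as phosphodiesterases 17 were tested, with 10 changes above 0 and 7 below it and a median of 0.05. The count above 0 was 8 of 17 after quantile normalization, with or without normexp. Both genes at an unadjusted p under 0.05 hydrolyse cAMP and not cGMP. Pde8a, an enzyme with a high affinity for cAMP, lay at -5.51, -5.10, -5.24 and -5.34 on TCDD arrays, against -5.91, -5.92, -6.23 and -5.51 on control arrays. Control replicate 4 reached the lowest TCDD array, and the other control arrays lay below all of them. For Pde8a the log2 change was 0.59 (SE 0.15), or 1.51-fold, with an unadjusted p of 0.00476, an adjusted p of 0.294 in limma and an exact permutation p of 0.0571. The probe was well above background on 4 TCDD and 3 control arrays, and with normexp and quantile normalization the change was 0.13.

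Pde7a stood at -2.51, -2.28, -2.31 and -2.61 on TCDD arrays, against -2.86, -2.56, -2.68 and -2.99 on control arrays. The groups overlapped by 1 TCDD array and 1 control array. The log2 change was 0.35 (SE 0.12), or 1.27-fold, with an adjusted p of 0.376 in limma and an exact permutation p of 0.0571. Unlike Pde8a, it was well above background on all 8 arrays.

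The Pde4 enzymes, the cAMP-specific targets of rolipram, did not share a direction. Pde4d gave -3.91, -3.83, -3.95 and -3.87 on TCDD arrays and -4.01, -4.24, -3.90 and -4.05 on control arrays, a log2 change of 0.16 (SE 0.08, adjusted p = 0.536 in limma). A further, dimmer probe of Pde4d gave 0.39 (SE 0.17). The change of the first probe was -0.06 with normexp and quantile normalization. For Pde4a the change was 0.11 (SE 0.06), while a further probe of the gene gave -0.08, and for Pde4b it was -0.19 (SE 0.13). Of the 6 tested cAMP-selective genes 5 had a change above 0, with a median of 0.16. Among the 6 tested enzymes that act on both cyclic nucleotides, Pde1a, Pde1b, Pde1c, Pde2a, Pde3b and Pde10a, it was 3 of 6, with a median of -0.02. The cGMP-selective Pde5a and Pde9a had changes of -0.16 and 0.08.

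Pde2a, which cGMP stimulates, lay at 1.87, 1.34, 0.98 and 2.00 on TCDD arrays and at 1.42, 1.75, 1.57 and 1.45 on control arrays. Its group means were nearly equal while the TCDD arrays spread on both sides of the control range. Pde10a, a striatal enzyme, gave 1.28, 1.20, 1.43 and 0.54 on TCDD arrays and 0.93, 1.40, 1.07 and 1.86 on control arrays, with replicate 4 lowest among TCDD arrays and highest among control arrays. Pde3b, which insulin signalling activates in fat cells, had the widest spread of all members and is named here for that. It lay at -3.97, -4.93, -4.29 and -5.71 on TCDD arrays and at -4.52, -4.10, -4.08 and -5.74 on control arrays. In each group replicate 4 was the lowest, by a wide margin in the control group, and the log2 change of -0.11 (SE 0.47) had a 95% interval of -1.20 to 0.97, which spans more than 2-fold lower to nearly 2-fold higher. Pde7b, also chosen after its values were seen, ranged from -5.28 to -3.68 on TCDD arrays and from -5.0 to -3.77 on control arrays.

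Pde6d, Pde12 and Pde4dip carry the family's name without being cyclic nucleotide phosphodiesterases of the usual kind. Pde6d is a chaperone of prenylated proteins, Pde12 an exonuclease of RNA and Pde4dip a scaffold at the Golgi and centrosome. Their log2 changes were 0.10, -0.03 and -0.07. A further probe of Pde12 was much dimmer, with means of -6.38 on TCDD arrays and -5.88 on control arrays. It gave -0.50, with an unadjusted p of 0.0143 and an adjusted p of 0.377 in limma over all kept probes. Its gap to the first probe was the widest between probes of a member. Among members with more than 1 kept probe 11 of 17 had probes of the same sign and 6 had not. Pde3a, Pde4c, Pde6a, Pde6b, Pde6c, Pde6h, Pde8b and Pde11a, which include the enzyme subunits of rods and cones, were well above background on 0 arrays, and Pde4dl1 on 1 TCDD array and 0 control arrays.

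**Figure D3:**
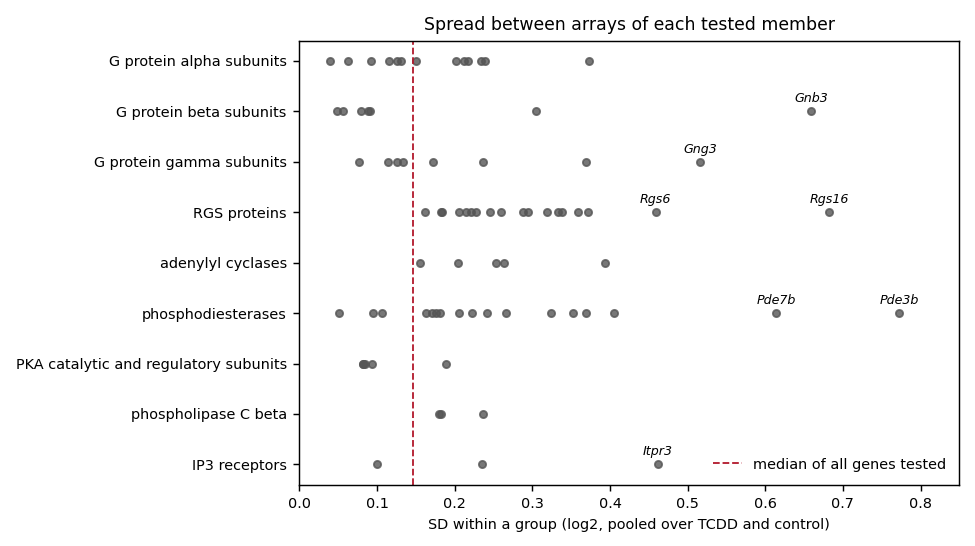
SD between arrays of a group (horizontal axis, log2, pooled over the TCDD and control groups) for each tested gene by family, with the median over all genes tested as a dashed line. Every tested RGS protein, adenylyl cyclase and phospholipase C beta gene lies right of the line at 0.15, and most beta subunits and PKA subunits lie left of it.

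The 5 tested subunits of PKA had a median SD between arrays of 0.08, and Prkar2b, at 0.19, was the one above the median of all genes. A total of 4 had a change below 0, with a median of -0.03, and 0 were at an unadjusted p under 0.05. Prkaca, the main catalytic subunit, had log2 signals of 4.42, 4.46, 4.55 and 4.44 on TCDD arrays and 4.38, 4.46, 4.60 and 4.57 on control arrays. Its 95% interval for the change was -0.19 to 0.12. A further, dimmer probe of Prkaca had the opposite sign, at 0.10 (SE 0.07). For Prkar1a, the regulatory subunit whose loss causes Carney complex in people, the signals were 2.91, 3.07, 3.14 and 2.94 on TCDD arrays and 3.02, 3.10, 3.01 and 3.07 on control arrays, with an interval of -0.19 to 0.12. The groups overlapped in both. Prkacb and Prkar1b had changes of 0.00 and 0.05, and Prkar2b, a regulatory subunit prominent in brain and fat, of -0.14 (SE 0.12). Prkar2a was well above background on 0 TCDD arrays and 2 control arrays.

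Phospholipase C beta, the target of Gq, and the IP3 receptors held 0 genes at an unadjusted p under 0.05. Plcb1 lay at -0.84, -1.08, -1.19 and -0.87 on TCDD arrays and at -0.68, -0.91, -1.14 and -0.84 on control arrays, and the change of -0.10 (SE 0.12) did not pass. A further, dimmer probe of Plcb1 had the opposite sign, at 0.04 (SE 0.12). For Plcb3 the change was -0.20 (SE 0.15) and for Plcb4 0.18 (SE 0.12). Plcb2 was well above background on 0 TCDD arrays and 1 control array. Itpr1 had log2 signals of 1.42, 1.5, 1.23 and 1.39 on TCDD arrays and 1.51, 1.44, 1.55 and 1.35 on control arrays, with a 95% interval of -0.25 to 0.10 for the change. Its further probe had the opposite sign, at 0.10. Itpr2 and Itpr3 had changes of 0.04 and -0.23, and neither passed.

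Genes upstream and downstream of these families were counted in the same way. In 10 lists of receptors, regulators and effectors, 130 of 152 genes were tested, 64 with a change above 0 and 66 below it, with a median of -0.01. By limma 0 passed the test, and 14 were at an unadjusted p under 0.05 (7 higher and 7 lower, 10.7% of all genes in either direction).

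Among 36 tested receptors of the Gs, Gi/o and Gq/11 classes 4 were at that level. Gnrhr, the receptor of gonadotropes for gonadotropin releasing hormone, lay at 0.35, -0.24, 0.03 and 0.14 on TCDD arrays, against 1.07, 0.27, 0.84 and 0.18 on control arrays. Replicates 1 and 3 of the control group stood above every TCDD array and the other control arrays lay within the TCDD range. The log2 change was -0.52 (SE 0.22, adjusted p = 0.454 in limma). Among gonadotrope hormone genes Fshb gave -0.71 (unadjusted p = 0.0197, adjusted p = 0.384 in limma) and Lhb 0.05, and neither passed. Of the 8 anterior pituitary markers Pou1f1, at 0.35, was the other one at an unadjusted p under 0.05. The mean deviation of these 8 was -0.16 to 0.10 on TCDD arrays and -0.06 to 0.08 on control arrays. Agtr1a, an angiotensin receptor, had a change of -0.38, P2ry1, a receptor for ADP, of 0.34 and Mtnr1a, a melatonin receptor, of 0.40. Agtr1b, the other angiotensin receptor of the list, was brighter, with a control mean of 3.87 against -1.04 for Agtr1a. Its change was -0.25 and was not at that level. Ghrhr, Sstr3 and Vipr2 had changes of -0.33, -0.37 and 0.24, at adjusted p of 0.621, 0.592 and 0.586 in limma.

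**Figure D4:**
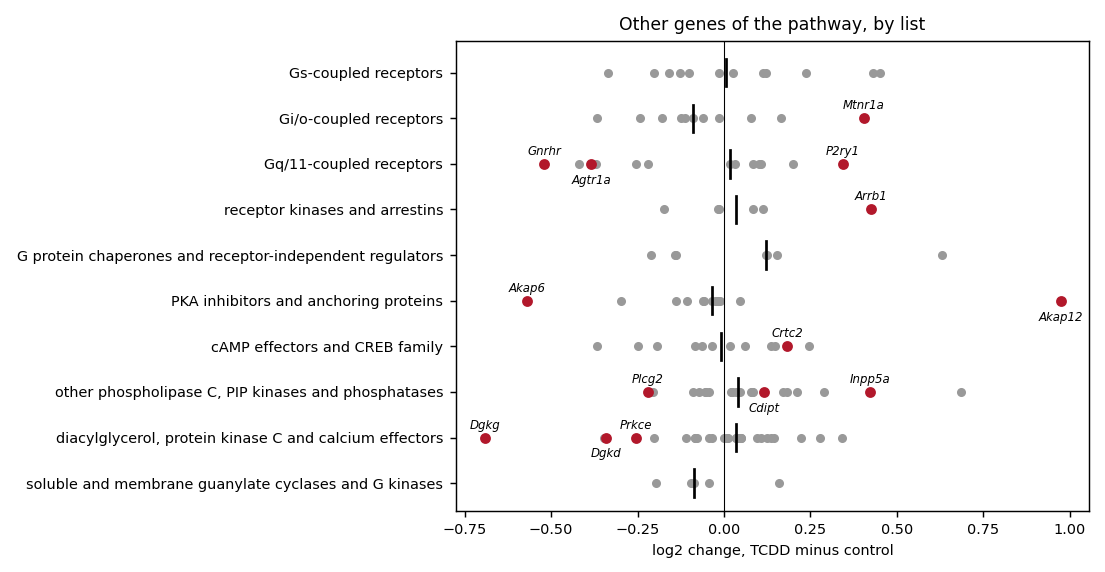
Log2 change, TCDD minus control (horizontal axis), of each tested gene in 10 lists of the pathway's other genes. Red points with names are the 14 genes at an unadjusted p under 0.05, grey points the others, and black bars the median of a list. The medians lie between -0.09 and 0.12, and Akap12 and Dgkg mark the ends of the range.

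The anchoring proteins that hold PKA near its targets held the largest log2 change in these lists, that of Akap12. Akap12, a scaffold at the cell membrane, lay at -2.53, -1.42, -2.32 and -2.75 on TCDD arrays, against -3.25, -3.32, -3.09 and -3.26 on control arrays. Akap6, an anchor at the nuclear envelope, lay at -2.88, -2.80, -2.60 and -2.78 on TCDD arrays, against -2.30, -2.32, -2.29 and -1.86 on control arrays. The groups did not overlap in either gene, and they differed in opposite directions. The log2 changes were 0.97 (SE 0.26, adjusted p = 0.300 in limma) and -0.57 (SE 0.12, adjusted p = 0.196). Of the 10 tested anchoring proteins 9 had a change below 0, beside 56.4% of all genes above 0. Among them Akap1, Akap5, Akap7, Akap8 and Akap11 lay only between -0.04 and -0.01. The count was not repeated under other scalings. With the PKA inhibitors Pkia, Pkib and Pkig, which share the list of anchoring proteins, 11 of 13 changes were below 0. The median was -0.04, with 1 gene in each direction at an unadjusted p under 0.05.

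Of the remaining genes at that level and others of their lists none passed. Arrb1, which stops receptor signalling, had a change of 0.43, while Arrb2 had 0.11, and Pcp2, a modulator of Gi/o alpha subunits, had 0.63 at an unadjusted p of 0.0966. Crtc2, a coactivator of CREB, had a change of 0.18 and Crebbp of -0.25. Inpp5a, which removes a phosphate from IP3, lay at -3.22, -3.02, -3.17 and -3.12 on TCDD arrays, against -3.87, -3.55, -3.40 and -3.39 on control arrays, with no overlap and a change of 0.42 (SE 0.11, adjusted p = 0.300 in limma). Dgkd, a kinase that removes diacylglycerol, lay at -2.85, -2.73, -2.79 and -3.0 on TCDD arrays, against -2.57, -2.44, -2.43 and -2.56 on control arrays. All 4 TCDD arrays were below all control arrays, and the change of -0.34 (SE 0.08) had an adjusted p of 0.214 in limma. Dgkg, of the same enzyme family, had a change of -0.69 and Prkce, a protein kinase C that diacylglycerol activates, of -0.26. Cdipt, which makes phosphatidylinositol, had a change of 0.12, and Plcg2 of -0.22. In the list of guanylate cyclases and G kinases 1 of 5 tested genes was above 0, with Gucy1b1 at 0.16 and Npr1 at -0.20.

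Red blood cell markers differed between the groups. All 6 tested markers of 7 listed were higher after TCDD at an unadjusted p under 0.05, and 0 passed the test in limma. Their mean deviation was -0.01 to 0.65 on TCDD arrays and -0.68 to 0.24 on control arrays, with control replicate 4 above TCDD replicate 1, and Epb42 was too dim to be tested. Their part in the values of the members was not tested. Markers of the posterior lobe and neural tissue (9 of 11 tested, Gfap and Mog too dim) had mean deviations of -0.34 to 0.01 on TCDD arrays and -0.42 to 0.45 on control arrays, with control replicate 4 lowest. Avp, the vasopressin gene, was at -1.41 (adjusted p = 0.409 in limma), the myelin genes Mbp and Mag were at -0.96 and 0.24, and their part in the values of neuronal members such as Gnao1 and Gng3 was not tested. Folliculostellate and stem cell markers (6 of 7 tested) ranged from -0.16 to 0.21 on TCDD arrays and from -0.33 to 0.11 on control arrays. Endothelial markers (7 of 8 tested) had mean deviations of -0.05 to 0.11 on TCDD arrays and -0.10 to 0.04 on control arrays. Markers of stroma and pericytes (12 of 12 tested) ranged from -0.14 to 0.26 on TCDD arrays and from -0.23 to 0.08 on control arrays.

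Across the 21 processing settings, the unadjusted p stayed under 0.05 in all for 4 of the named members, Gnai1, Gnal, Rgs1 and Pde7a, and the adjusted p stayed above 0.05 in all for every tested member, 0.128 being the lowest in limma. The count at an unadjusted p under 0.05 was 5 with arrays centred on their median, against 9. Among all genes at that level 72.5% were higher after TCDD, against 54.1% after quantile normalization, 53.1% with normexp and quantile normalization and 48.2% with median centring.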

How the data were processed

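Agilent Feature Extraction 10.7.1.1 made the deposited intensities, which are linear processed signals per spot after background subtraction, with flags, per the file headers. The tool is also named in the submitters' processing notes. Probe coordinates are on rn4, as those headers state. The authors also deposited a table of linear intensities of the same arrays with 1 shared distribution (each column's median is 56.3). Its further scaling is not given in the sources used here, its ranks within an array follow those of the processed signals, and it served as an alternative.

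Processed signals were put on the log2 scale, and the 75th percentile of an array's non-control spots was subtracted. Outlier spots were left out, spots of a probe averaged, and probes used that were well above background on at least 4 arrays. Where a gene had several such probes, the brightest on average stood for it. Symbols were updated through RefSeq's GRCr8 table, which matched 18006 probes through an accession, 2654 through the symbol and 559 through a former symbol. The other 9148 kept the files' names. Of its positions only the chromosome was used, and promoters came from RefSeq's table of the same build. Groups were compared with limma 3.58.1 in R 4.3.3 (lmFit and eBayes, two-sided, Benjamini-Hochberg over 17361 genes, threshold 0.05), and single genes by an exact permutation test. The fit was tested on simulated data. A marker list's mean deviation is the mean over its tested genes of the log2 value minus the gene's mean over all arrays.

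Named members are those past the threshold, then those without overlap, then the smallest p to 24, then 2 for each family, 14 fixed genes, members whose probes disagree, and up to 2 genes of each pathway list. Adcy1, one of the fixed genes, was too dim to be tested. Rgs16, Pde3b, Pde7b, Gnrhr, Plcg2 and Prkce, and other genes given by their change alone, were named after their values were seen. The members and lists were chosen with earlier results of these data known. Array pairs correlated at 0.989 to 0.996, so none was counted as a duplicate. Alternatives changed the normalization, background, filter, probe choice, variance model or array weighting, used the deposited table, took the replicate number as a block, or left out 1 array.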

Additional observations from a re-analysis of the deposited data

Results flagged for a closer look

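In 102 genes, the 79 tested members and 23 pathway genes, 204 groups of 4 arrays were examined for an array far from the others. A total of 9 groups (4.41%) held one, and chance alone gives about 5%. The measure is the gap from that array to its nearest neighbour divided by the range of the group. In the TCDD group it was 0.941 for Gnal, where replicate 4 lay at 0.78 and the other TCDD arrays between 0.46 and 0.48. It was 0.868 for Gna15, with replicate 3 at -4.97, and 0.845 for Gng13, with replicate 1 at -3.20. In the control group it was 0.969 for Gngt2, with replicate 3 at -2.15, and 0.852 for Adcy4, with replicate 1 at -6.01. Pde1a stood at 0.848 there, with replicate 2 at -1.07. Control replicate 4 was the far array for Plcb3 (0.90, at -5.25), Rgs8 (0.867, at -3.95) and Akap6 (0.938, at -1.86).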

How the results depend on the processing

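The 64 named genes were recomputed under 20 alternatives, 1276 values in all, and 21 of these, in 11 genes, had the opposite sign of the reported change. None of the 64 passed the threshold under any alternative. With normexp and quantile normalization Pde4d stood at -0.0556, Gna11 at -0.0140 and Adcy6 at -0.0284. With the mean of all kept probes Itpr1 stood at 0.0107, Prkaca at 0.0296 and Gng13 at -0.0317. With median centring Gnas stood at -0.00788, and with array weights Gng13 stood at -0.00404. Leaving out each array in turn, the log2 change lay between -0.00850 and 0.0668 for Gnas, -0.166 and 0.0628 for Gnaq, -0.0129 and 0.179 for Adcy6, -0.0760 and 0.00207 for Prkar1a, -0.0271 and 0.111 for Gng13, -0.490 and 0.214 for Pde3b, and -0.0596 and 0.476 for Pde7b. The cause of these reversals was not tested. Over all genes the count of calls, 14 as reported, was 1 with quantile normalization, 0 with normexp and quantile normalization, 9 with median centring, 9 with every kept probe on its own, 4 with an intensity trend, 30 with array weights and 1 with the deposited table. Leaving out each array it ranged from 0 (control replicate 3 or TCDD replicate 1) to 11 (control replicate 4). Members at an unadjusted p under 0.05, 9 as reported, numbered 5 with median centring, 6 with quantile normalization, 6 with the deposited table, and 6 to 11 leaving out each array. The replicate number as a block gave 0 calls over all genes and 6 members at an unadjusted p under 0.05. Deviations of arrays with the same number correlated at -0.10 to -0.02, and 0 of 8 arrays correlated best with its own number. These values showed no pairing by number, and with 4 arrays in each group they cannot exclude a weak one. Slide as a block could not be fitted, since each slide holds 1 group. Log2 changes of dim probes, such as those of Pde8a, Rgs6 and Gnai1, were smaller with normexp and quantile normalization than with quantile normalization alone. The offset of 50 in the normexp step shrinks such changes by construction, and the background correction differs as well. The smaller values are therefore no test of these changes.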
